A study of Homo sapiens with 9 samples.

Results

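The angiomotins AMOT, AMOTL1 and AMOTL2 and 7 core genes of the Hippo pathway, YAP1, WWTR1, LATS1, LATS2, CCN1, CCN2 and TEAD1, were examined in RNA-Seq counts of HEK293-derived cells. These 10 genes, of 60648 in the count table, were listed by name. AMOT was selected on these data for its low level in TC4-2A cells, so its values are given as a description with no test. All 10 passed the filter on low counts, as did 19473 genes in all.

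The study asked what overexpression of C2A–2B–3–4 does to the transcriptome. C2A–2B–3–4 is a circular RNA that joins early exons (2A to 4) of SMN1 and SMN2, the genes of the survival motor neuron protein. The 3 lines, with 3 libraries each, were compared. T-REx is the parental line, derived from the human embryonic kidney line HEK293, and carries no insertion. TC4-2A cells express circular C2A–2B–3–4, and TL4-2A cells express L2A–2B–3–4, a linear transcript of the same exons, both from stably inserted inducible constructs. The study also detected linear L2A–2B–3–4 in TC4-2A cells, as a precursor of the circular RNA. A difference between TC4-2A and TL4-2A cells is therefore not one of circular against linear RNA alone. All 3 lines, T-REx included, received doxycycline (Dox) at 0.1 µg/mL for 96 h, so no line was sampled without Dox. Each construct was represented by 1 cell line, and whether a line is a single clone and whether its libraries came from separate cultures is not stated in the sources used. The p-values therefore measure the spread between libraries of a line, which may be technical, and the effect of a construct and other differences between the lines cannot be told apart.

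The Hippo pathway is a kinase cascade that senses cell density, polarity and tension. Upstream kinases and their scaffolds activate LATS1 and LATS2, which phosphorylate the coactivators YAP (encoded by YAP1) and TAZ (encoded by WWTR1) and so keep them out of the nucleus. Unphosphorylated YAP and TAZ bind TEAD transcription factors and switch on target genes, among them those of the secreted matrix proteins CCN1 and CCN2. Angiomotins are junction and actin-binding scaffolds that bind YAP and TAZ directly, hold them outside the nucleus and promote their phosphorylation by LATS kinases.

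Library totals ranged from 16561680 to 21491977 counts. Levels are given as CPM (counts per 1000000 of a library size scaled by the trimmed mean of M-values, TMM), and differences as log2 fold changes. Genes were tested with edgeR's quasi-likelihood test, 2-sided, and a gene was called where its p, adjusted by Benjamini-Hochberg over all genes tested, was under 0.05. All 6 markers used for HEK293 cells (NEFL, NEFM, INA, VIM, KRT8 and KRT18) were at 1 CPM or more in every line. Their summed level was 1040 to 1080 CPM in T-REx, 799 to 836 CPM in TC4-2A and 829 to 841 CPM in TL4-2A libraries. The largest parts were VIM (means of 566, 460 and 504 CPM in the same order) and NEFL (217, 121 and 132 CPM). All 5 blood cell markers and all 5 endothelial markers were under 1 CPM in every line, with sums of at most 0.741 CPM and 1.10 CPM, and HBB was at 0 in every library. Of 5 fibroblast markers 2, COL1A1 and COL3A1, were at 1 CPM or more, and the list summed to between 12.6 and 15.1 CPM. SMN1 averaged 38.4 CPM in T-REx, 74.8 CPM in the TC4-2A line and 42.7 CPM in the TL4-2A line. SMN2 averaged 16.4, 19.9 and 19.7 CPM in the same order. SMN1 and SMN2 are near-identical copies, so which of them a read came from is uncertain. Both constructs hold exons of these genes, so the values may mix construct RNA with that of the cells' own genes. They do not measure the expression of either construct.

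The promoter sequences of RefSeq (GRCh38.p14), from 250 bases before to 50 bases after a gene's start, matched 8 of the 10 genes by symbol. CCN1 and TEAD1 had no entry. The letters GGAATG, the core of the motif that TEAD factors bind, were searched on both strands, the reverse being CATTCC. They were found in 4928 of 35116 promoters (14.0%), in 4 of the 11 windows of the 8 genes and in 6 of 14 windows of other YAP/TAZ target genes. The bases before the start are shown for CCN2, the textbook YAP/TAZ target, which held the most copies of these genes (3), and for AMOT, the gene with the largest difference, which held none. Capitals mark the searched letters, and both are written 5′ to 3′ on the strand of the gene, which is minus in both cases.
CCN2, chr6:131951373-131951622: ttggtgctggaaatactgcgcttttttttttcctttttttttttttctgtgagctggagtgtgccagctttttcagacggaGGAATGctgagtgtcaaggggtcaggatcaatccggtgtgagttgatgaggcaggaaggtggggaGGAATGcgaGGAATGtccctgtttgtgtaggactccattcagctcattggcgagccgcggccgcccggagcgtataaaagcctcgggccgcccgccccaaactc
AMOT, chrX:112840832-112841081: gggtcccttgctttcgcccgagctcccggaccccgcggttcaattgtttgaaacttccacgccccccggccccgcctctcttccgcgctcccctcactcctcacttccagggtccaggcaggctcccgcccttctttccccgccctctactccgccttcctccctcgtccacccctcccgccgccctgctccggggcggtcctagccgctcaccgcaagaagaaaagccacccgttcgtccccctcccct

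The copies of CCN2 began 169, 104 and 95 bases before the start. The AMOT window of 300 bases was rich in G and C (67.7%, against a median of 58.7% over all promoters) and held 23 CpG dinucleotides (median 14). No match says only that these letters are not in this window. Of the other members, YAP1, a second start of AMOTL2 and LATS2 held 1 copy each, at 162 and 69 bases before and 10 bases after the start. The 12 bases on either side of the copies before the start are shown to compare them with CCN2.
YAP1, chr11:102110273-102110302, plus strand: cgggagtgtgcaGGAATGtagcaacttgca
AMOTL2, chr3:134374499-134374528, minus strand: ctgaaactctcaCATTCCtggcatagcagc
CCN2, chr6:131951524-131951553, minus strand: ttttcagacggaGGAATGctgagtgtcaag

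AMOT (ENSG00000126016.17) lies on the minus strand of chromosome X, from 112774503 to 112840831 of GRCh38. It encodes angiomotin, the founding member of the family. Its level was 231, 223 and 220 CPM in the T-REx libraries, 23.5, 24.3 and 23.3 CPM in the TC4-2A libraries and 287, 280 and 282 CPM in the TL4-2A libraries. The libraries of the 3 lines did not overlap, with TC4-2A lowest and TL4-2A highest. In counts, AMOT had 4351, 4821 and 4210 in T-REx, 470, 511 and 434 in TC4-2A, and 4742, 5234 and 4632 in TL4-2A libraries, so the low level in TC4-2A cells still rests on at least 434 counts per library. The means were 225 ± 5.64 CPM in T-REx, 23.7 ± 0.508 CPM in the TC4-2A line and 283 ± 3.65 CPM in the TL4-2A line (SD, n = 3 libraries). The log2 fold change was -3.24 (standard error 0.04) in TC4-2A against T-REx cells, a 9.47-fold lower level. In TL4-2A cells it was 0.33 (standard error 0.03), a 26.1% higher level. Between the transgenic lines the level was 11.9-fold lower in TC4-2A cells (log2 fold change -3.58). Of the 19473 genes tested, 37 had a more negative log2 fold change than AMOT in TC4-2A cells. Among 12249 protein-coding genes with a mean of at least 1 log2 CPM, 6 did. These ranks follow from the value that selected AMOT and carry no test. In these bulk libraries, fewer cells with AMOT mRNA and less AMOT mRNA per cell cannot be told apart.

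**Figure D1:**
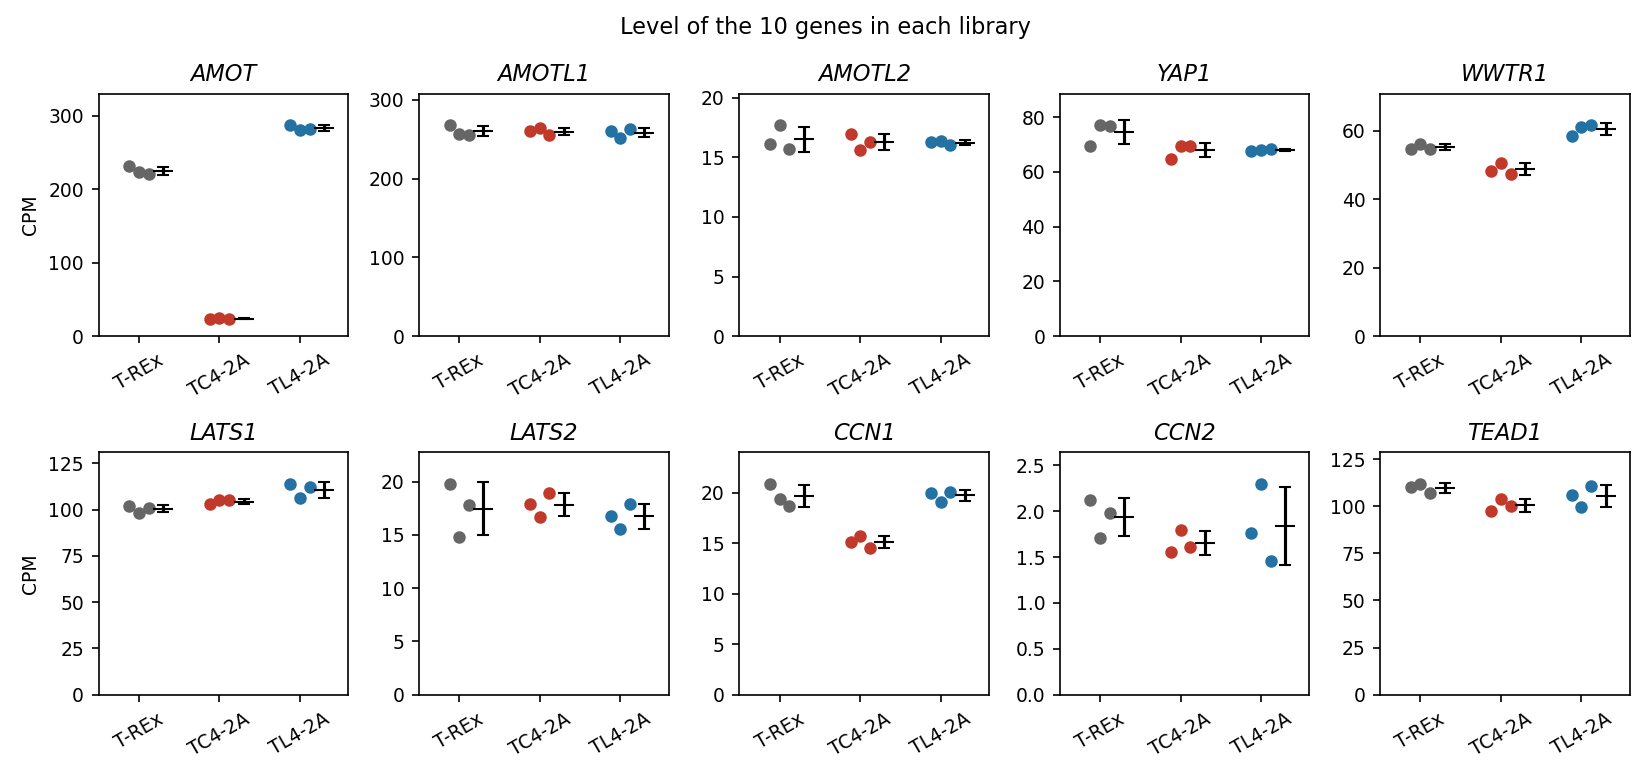
CPM of each of the 10 genes in every library (dots, 3 per line) with the mean and SD of the line (bars), on axes that start at 0. AMOT lies between 23.3 and 24.3 CPM in the 3 TC4-2A libraries and at 220 CPM or more in all others, while the other panels show differences that are small beside the level of the gene.

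AMOTL1 (ENSG00000166025.18, chromosome 11, 94706431 to 94876748) and AMOTL2 (ENSG00000114019.15, chromosome 3, 134355347 to 134375479) encode the paralogs of angiomotin, which share its YAP-binding motifs. AMOTL1 had 268, 257 and 256 CPM in T-REx, 260, 264 and 255 CPM in TC4-2A, and 261, 252 and 263 CPM in TL4-2A libraries. AMOTL2 had 16.1, 17.7 and 15.7 CPM, then 17, 15.6 and 16.3 CPM, then 16.3, 16.4 and 16.0 CPM in the same order. The 3 lines overlapped for both genes. The log2 fold change of AMOTL1 was 0.00 in TC4-2A against T-REx cells (95% interval -0.06 to 0.05, edgeR adjusted p = 0.95) and -0.01 in TL4-2A cells (-0.06 to 0.05, adjusted p = 0.864). For AMOTL2 the values were -0.02 (-0.17 to 0.12, edgeR adjusted p = 0.858) and -0.03 (-0.17 to 0.12, adjusted p = 0.807). These intervals reach no farther from 0 than 0.06 on the log2 scale for AMOTL1 and 0.17 for AMOTL2.

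The levels of different genes were compared per kilobase of exons. In T-REx cells AMOT (26.4 CPM per kilobase) and AMOTL1 (25.9) were the highest of the 10 genes and their libraries overlapped. LATS1 and YAP1, both at 11.8 CPM per kilobase, overlapped too. They were followed by TEAD1 (10.2), WWTR1 (6.62), CCN1 (5.32), LATS2 (3.11), AMOTL2 (2.55) and CCN2 (0.830), of which LATS2 and AMOTL2 overlapped. In TC4-2A cells AMOT stood eighth at 2.78 CPM per kilobase, between LATS2 (3.17) and AMOTL2 (2.52), and no neighbours in the order overlapped. That place depends on the length used. With the longest transcript as length, AMOT in this line (3.11) lay below both LATS2 (3.21) and AMOTL2 (3.35). For T-REx the same length put AMOTL2 (3.39) above LATS2 (3.15). In TL4-2A cells AMOT was first at 33.2 CPM per kilobase and AMOTL1 second at 25.8.

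The 3 angiomotin mRNAs summed to 54.9 ± 1.28 CPM per kilobase in T-REx, 31.2 ± 0.438 in the TC4-2A line and 61.6 ± 0.889 in the TL4-2A line (SD, n = 3). AMOT made up 48.1 ± 0.0928% of the sum in T-REx, 8.92 ± 0.109% in the TC4-2A line and 54.0 ± 0.377% in the TL4-2A line. The share of AMOTL1 was 47.3%, 83.0% and 41.9%, and that of AMOTL2 4.65%, 8.08% and 4.08%. These sums follow from the values that selected AMOT and carry no test.

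**Figure D2:**
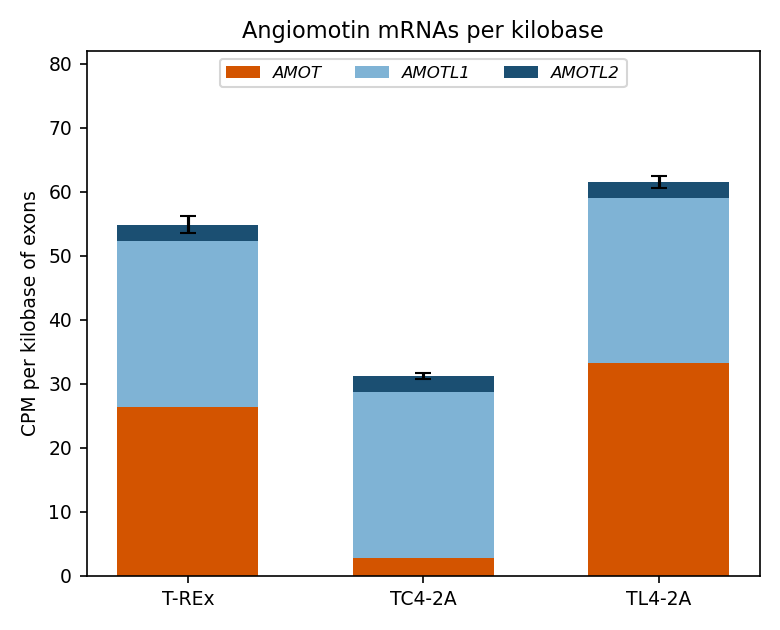
Stacked mean levels of the 3 angiomotin mRNAs in CPM per kilobase of exons in each line (bars), with the SD of the sum over 3 libraries (error bars). The AMOT segment is 26.4 in T-REx and 2.78 in TC4-2A cells, while the AMOTL1 segment lies between 25.8 and 25.9.

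Of the 9 members other than AMOT, 4 were called in TC4-2A against T-REx cells, against 28.8% of all genes tested. None of the 9 was higher (14.2% of all genes were called higher) and 4, YAP1, WWTR1, CCN1 and TEAD1, were lower (14.6% of all genes). In TL4-2A against T-REx cells 3 were called, against 44.3% of all genes, with 2, WWTR1 and LATS1, higher (21.9% of all genes) and 1, YAP1, lower (22.5%). In TC4-2A against TL4-2A cells 2 were called, against 35.4% of all genes, with none higher (17.6%) and 2, WWTR1 and CCN1, lower (17.8%). The median log2 fold changes of the 9 genes were -0.13, -0.03 and -0.07, and those of all genes were 0.00. Both comparisons with T-REx used the same T-REx libraries. With 9 genes, these shares are a description, and nothing particular to the list was read from them.

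**Figure D3:**
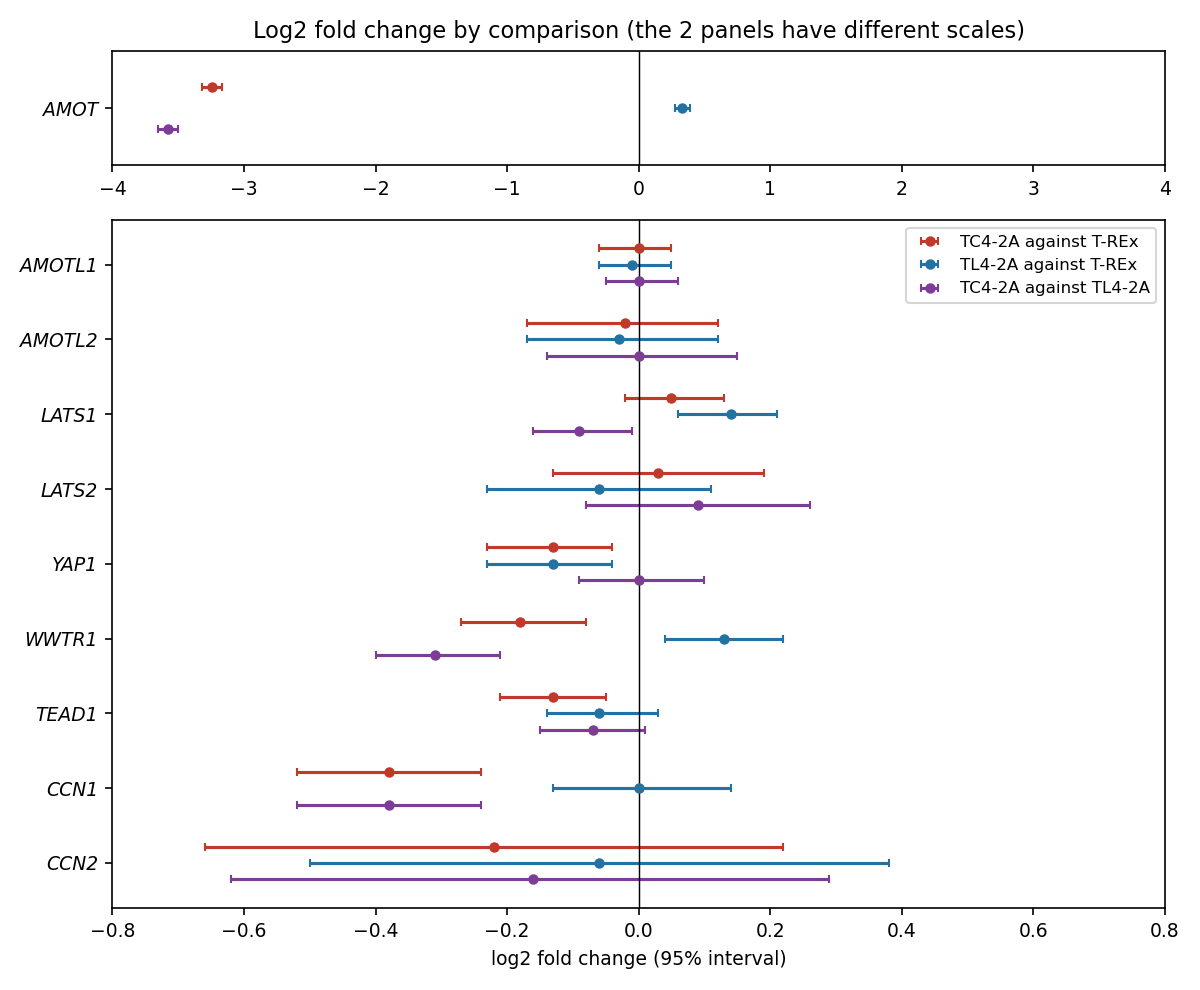
Log2 fold change of each gene with its 95% interval (bars) from the edgeR model, for the 3 comparisons in different colours, with AMOT on a wider scale above. AMOT was selected on these data, so its intervals are a description and no test. Outside AMOT, CCN1 in both comparisons of TC4-2A cells (-0.38) and WWTR1 in TC4-2A against TL4-2A cells (-0.31) lie farthest from 0 among the intervals that do not include 0.

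LATS1 (ENSG00000131023.13, chromosome 6, 149658153 to 149718105) and LATS2 (ENSG00000150457.9, chromosome 13, 20973036 to 21061586) encode the kinases that phosphorylate YAP and TAZ. LATS1 had 102, 98.3 and 101 CPM in T-REx, 103, 105 and 105 CPM in TC4-2A, and 114, 106 and 112 CPM in TL4-2A libraries. The 3 lines did not overlap, with T-REx lowest and TL4-2A highest. LATS1 rose in TL4-2A against T-REx cells by 0.14 on the log2 scale (standard error 0.04, edgeR adjusted p = 0.0031). In TC4-2A against T-REx cells the difference was 0.05 (95% interval -0.02 to 0.13, adjusted p = 0.324), and in TC4-2A against TL4-2A cells -0.09 (adjusted p = 0.0774). That last value passed the threshold without TL4-2A replicate 2 (adjusted p = 0.0337).

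LATS2 had 19.8, 14.8 and 17.8 CPM in T-REx, 17.9, 16.7 and 18.9 CPM in TC4-2A, and 16.8, 15.5 and 17.9 CPM in TL4-2A libraries, and the lines overlapped. Its log2 fold change was 0.03 in TC4-2A against T-REx cells (95% interval -0.13 to 0.19, edgeR adjusted p = 0.825) and -0.06 in TL4-2A cells (-0.23 to 0.11, adjusted p = 0.578). LATS1 accounted for 79.2 ± 2.10%, 79.5 ± 1.05% and 81.4 ± 0.683% of the kinase mRNA per kilobase in the T-REx, TC4-2A and TL4-2A lines (SD, n = 3), and the T-REx libraries overlapped with those of both other lines.

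YAP1 (ENSG00000137693.14, chromosome 11, 102110447 to 102233424) encodes the coactivator YAP. Its level was 69.4, 77.1 and 76.9 CPM in T-REx, 64.9, 69.4 and 69.5 CPM in TC4-2A, and 67.6, 67.9 and 68.3 CPM in TL4-2A libraries. The T-REx libraries reached down to the highest TC4-2A library (69.4 against 69.5 CPM), and they stood above the TL4-2A libraries. YAP1 fell by 0.13 on the log2 scale in TC4-2A cells (standard error 0.05, edgeR adjusted p = 0.027) and by 0.13 in TL4-2A cells (standard error 0.05, adjusted p = 0.0192). The transgenic lines differed by 0.00 (95% interval -0.09 to 0.10, adjusted p = 0.995). The TC4-2A call was lost without T-REx replicate 2 (adjusted p = 0.157), T-REx replicate 3 (0.137) or TC4-2A replicate 1 (0.124), all from edgeR. The TL4-2A call was lost without T-REx replicate 2 (0.117), T-REx replicate 3 (0.1) or TL4-2A replicate 1 (0.052).

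WWTR1 (ENSG00000018408.15, chromosome 3, 149517235 to 149736714) encodes TAZ, the paralog of YAP. Its level was 54.8, 56.2 and 54.8 CPM in T-REx, 48.3, 50.7 and 47.5 CPM in TC4-2A, and 58.5, 61.3 and 61.7 CPM in TL4-2A libraries. The 3 lines did not overlap, with TC4-2A lowest and TL4-2A highest, the same order as for AMOT. WWTR1 fell by 0.18 on the log2 scale in TC4-2A against T-REx cells (standard error 0.05, edgeR adjusted p = 0.00311). It rose by 0.13 in TL4-2A against T-REx cells (standard error 0.05, adjusted p = 0.0213). Between the transgenic lines the difference was -0.31 on the log2 scale (standard error 0.05, adjusted p = 1.34e-06), a level 1.24-fold lower in TC4-2A cells. The TL4-2A call was lost with no filter on low counts (adjusted p = 0.0772) and without T-REx replicate 1 (0.0561), T-REx replicate 3 (0.0608), TL4-2A replicate 2 (0.0723) or TL4-2A replicate 3 (0.0646). The values of TC4-2A cells against either line passed the threshold in all 15 alternatives tried.

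Together, YAP1 and WWTR1 amounted to 18.4 ± 0.758 CPM per kilobase in T-REx, 16.6 ± 0.510 in the TC4-2A line and 18.0 ± 0.264 in the TL4-2A line (SD, n = 3). YAP1 made up 64.0 ± 1.24% of this sum in T-REx, 64.8 ± 0.999% in the TC4-2A line and 59.8 ± 0.591% in the TL4-2A line. With the longest transcript as length these shares were 55.6%, 56.5% and 51.2%, so their size depends on the length used. Per kilobase of exons, the TL4-2A libraries, at 59.4 to 60.5%, lay below those of both other lines, which overlapped with each other.

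TEAD1 (ENSG00000187079.20, chromosome 11, 12674421 to 12944737) encodes a DNA-binding partner of YAP and TAZ. It had 110, 112 and 107 CPM in T-REx, 97.5, 104 and 99.9 CPM in TC4-2A, and 106, 99.5 and 111 CPM in TL4-2A libraries. The TC4-2A libraries lay below the T-REx libraries, and the TL4-2A libraries overlapped with both. TEAD1 fell by 0.13 on the log2 scale in TC4-2A cells (standard error 0.04, edgeR adjusted p = 0.0147). In TL4-2A cells the value was -0.06 (95% interval -0.14 to 0.03, adjusted p = 0.272), and between the transgenic lines it was -0.07 (adjusted p = 0.18). The TC4-2A call was lost without T-REx replicate 2 (edgeR adjusted p = 0.086) or TC4-2A replicate 1 (0.067).

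Per kilobase, TEAD1 mRNA in T-REx cells made up 27.7% of the sum over the 4 family members, beside 26.5% for TEAD2, 12.7% for TEAD3 and 33.1% for TEAD4. With the longest transcript as length, TEAD1 (26.0%) lay below TEAD2 (26.8%). The sum was 37.0 ± 1.28 CPM per kilobase in T-REx, 37.2 ± 0.337 in the TC4-2A line and 40.4 ± 1.45 in the TL4-2A line (SD, n = 3). TEAD4, named here after its values were seen, rose by 0.35 on the log2 scale in TL4-2A cells (edgeR adjusted p = 6.38e-06) and was at 0.11 in TC4-2A cells (adjusted p = 0.156). TEAD2 and TEAD3 were called in none of the 3 comparisons.

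CCN1 (ENSG00000142871.18, chromosome 1, 85580761 to 85584589) and CCN2 (ENSG00000118523.6, chromosome 6, 131948176 to 131951372) encode secreted matricellular proteins and are among the best-known genes switched on by YAP and TAZ. CCN1 had 20.9, 19.4 and 18.7 CPM in T-REx, 15.1, 15.7 and 14.5 CPM in TC4-2A, and 20, 19.1 and 20.1 CPM in TL4-2A libraries. The TC4-2A libraries lay below all others, and the T-REx and TL4-2A libraries overlapped. CCN1 fell by 0.38 on the log2 scale in TC4-2A against T-REx cells (standard error 0.07, edgeR adjusted p = 3.16e-05), 1.30-fold. Against TL4-2A cells the log2 fold change was -0.38 as well (standard error 0.07, adjusted p = 2.8e-05), and in TL4-2A against T-REx cells it was 0.00 (95% interval -0.13 to 0.14, adjusted p = 0.988). In TC4-2A cells, the CCN1 values passed the threshold in all 15 alternatives tried, from -0.41 to -0.33 against T-REx and from -0.41 to -0.35 against TL4-2A cells.

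CCN2 had 2.12, 1.71 and 1.98 CPM in T-REx, 1.55, 1.80 and 1.61 CPM in TC4-2A, and 1.76, 2.30 and 1.46 CPM in TL4-2A libraries, and the lines overlapped. Its counts ran from 24 to 43 per library. The log2 fold change was -0.22 in TC4-2A cells (95% interval -0.66 to 0.22, edgeR adjusted p = 0.494) and -0.06 in TL4-2A cells (-0.50 to 0.38, adjusted p = 0.857). A difference of the size seen for CCN1 (-0.38) lies within both intervals, so these counts do not exclude it for CCN2.

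Each member was then set beside the 10 tested genes on either side of it on its chromosome. For AMOT these 20 genes spanned 9.99 Mb and had a median log2 fold change of -0.22 in TC4-2A cells, with 3 called higher and 7 lower. In TL4-2A cells the median was -0.17, with 4 higher and 9 lower. The TC4-2A line had 14.2% of all genes tested called higher and 14.6% called lower, and the TL4-2A line had 21.9% called higher and 22.5% called lower. AMOT itself was 3.02 below the median of its neighbours in the TC4-2A line (-3.02 on the log2 scale) and 0.50 above it in the TL4-2A line. Of 101 tested genes within 10 Mb of AMOT, 39 were lower and 7 higher in TC4-2A cells, with a median of -0.14. For the TL4-2A line 37 were lower and 8 higher, with a median of -0.11. In TC4-2A cells none of these had a log2 fold change at or below that of AMOT, and in TL4-2A cells 85 did. AMOT was selected for its TC4-2A value, so its place among the genes around it is a description and no test.

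The nearest tested genes on one side were ALG13, a subunit of the enzyme for the second step of N-glycan assembly, and the pseudogene EIF4BP7. ALG13 averaged 114 CPM in T-REx and 112 CPM in TC4-2A cells (log2 fold change -0.03, edgeR adjusted p = 0.64), and lay 1110 kb from AMOT. Distances here are between the lowest coordinates of the genes, whatever their strand. EIF4BP7 went from 2.39 to 3.25 CPM (0.45, adjusted p = 0.0428), a call lost in 7 of 15 alternatives. On the other side were the noncoding RNA XACT and LRCH2, a leucine-rich repeat protein gene 2340 kb away. XACT was at 0.717 CPM in T-REx and 0.368 CPM in TC4-2A cells (-0.96, edgeR adjusted p = 0.0789, not called). Its TC4-2A libraries held 6, 9 and 7 counts. LRCH2 fell from 57.9 ± 1.49 CPM to 28.9 ± 1.23 CPM in TC4-2A and stood at 45.2 CPM in TL4-2A (-0.36 on the log2 scale). PAK3, a p21-activated kinase gene 1830 kb away, fell from 2.56 to 0.565 CPM in the TC4-2A line (-2.15, edgeR adjusted p = 9.23e-09), and its value in TL4-2A cells was 2.11 CPM (-0.27, adjusted p = 0.266). In TL4-2A cells XACT (-1.30), PLS3-AS1 (-1.05) and a Y_RNA gene (-1.36), all at 1.14 CPM or less in T-REx cells, were lower by over 2-fold. Their TL4-2A libraries held few counts: 2, 11 and 2 for XACT, 7, 12 and 9 for PLS3-AS1 and 4, 7 and 6 for the Y_RNA gene. The XACT call was lost in 4 of 14 alternatives. Over the alternatives, XACT ranged from -2.51 to -0.95 and PLS3-AS1 from -1.21 to -0.91.

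**Figure D4:**
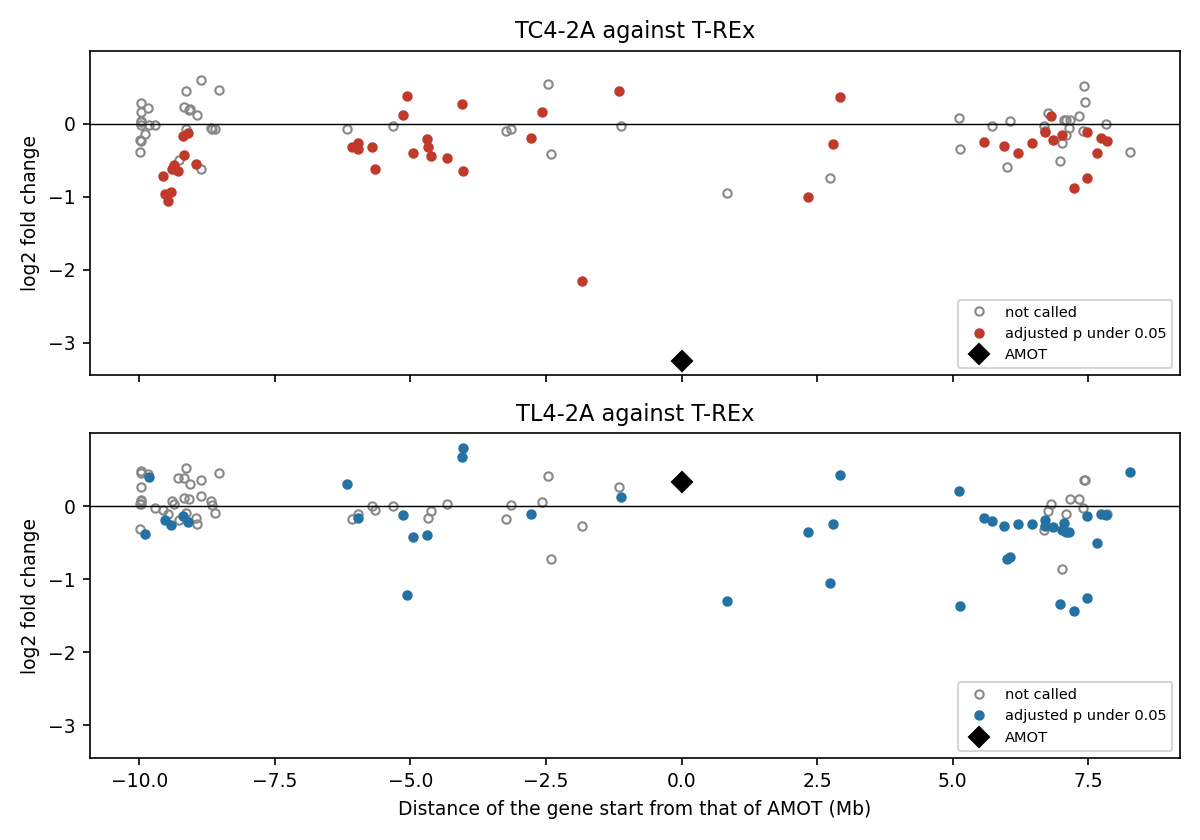
Log2 fold change of each of the 101 tested genes within 10 Mb of AMOT (dots) and of AMOT (diamond) against the distance from AMOT in Mb, for TC4-2A and TL4-2A cells against T-REx. The gene start on the axis is the lowest coordinate of a gene, whatever its strand. Filled dots passed the test, and AMOT at -3.24 lies below every other gene in the TC4-2A line and at 0.33 in the TL4-2A line. AMOT was selected on these data, so its place is a description.

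YAP1 lay close to its neighbours. It had -0.13 in both transgenic lines. The medians of the 20 genes around it were -0.12 in the TC4-2A line and -0.18 in the TL4-2A line. Of these genes 1 and 0 were called higher and 8 and 10 lower. Over all genes tested, 14.2% and 21.9% were called higher in the 2 lines and 14.6% and 22.5% lower. For CCN1 the median of the neighbours in TC4-2A cells was -0.11, with 0 of 20 called higher and 10 lower, and CCN1 stood at -0.38. For WWTR1 the medians were -0.06 and -0.08 where WWTR1 stood at -0.18 and 0.13. For LATS1 the medians were -0.11 and -0.06 where LATS1 stood at 0.05 and 0.14. Around AMOTL1, 0 and 2 of 20 genes were called higher and 6 and 11 lower. The medians there were -0.10 and -0.18, while AMOTL1 itself was at 0.00 and -0.01. Around TEAD1 they were -0.05 and 0.04, around AMOTL2 -0.05 and 0.03, around LATS2 -0.01 and -0.17, and around CCN2 -0.02 and -0.11. The part that neighbouring genes have in the members' values was not tested.

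Genes annotated across a member on either strand (Gencode v44) were at or under 1.20 CPM on average in each line. The highest, WWTR1-IT1 and WWTR1-AS1, averaged 1.09 and 0.937 CPM in T-REx cells, beside 55.3 CPM for WWTR1. For AMOT the only such gene was MIR4329, at 0 in every line.

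The protein-coding genes whose pattern over the 9 libraries was nearest to that of AMOT were TUSC1, PCDH19, ZNF257, TAL1 and TRANK1, of 12248 candidates. Likeness was the Euclidean distance between log2 CPM values less the T-REx mean, which was 0.956 for TUSC1, 1.31 for PCDH19, 1.75 for ZNF257, 1.86 for TAL1 and 2.24 for TRANK1. PCDH19, which encodes a protocadherin and also lies on chromosome X, averaged 60.6 CPM in T-REx, 3.73 CPM in the TC4-2A line and 70.3 CPM in the TL4-2A line. TUSC1 averaged 3.41, 0.365 and 5.37 CPM in the same order. The others averaged from 3.33 to 5.50 CPM in T-REx cells and from 0.756 to 0.990 CPM in TC4-2A cells.

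Other genes of the pathway were read from 5 lists, each set beside all genes tested. Of all genes, 28.8% were called for TC4-2A and 44.3% for TL4-2A against T-REx, and 35.4% between the transgenic lines. Their medians were 0.00 in all 3 comparisons. The lists were not tested as sets, so their shares are a description, and nothing particular to a list was read from them. The Hippo kinase module holds the kinases and scaffolds upstream of LATS, and the LATS-related kinase genes STK38 and STK38L. Of 22 genes 21 were tested, WWC3 being too low. In TC4-2A cells WWC2, a paralog of the scaffold KIBRA, rose by 0.21 on the log2 scale (edgeR adjusted p = 4.49e-05) and MINK1, a MAP4K-family kinase gene, by 0.17 (adjusted p = 0.00291). STK38L, a LATS-related kinase gene named after its values were seen, fell by 0.17, and the other 18 were not called. These 3 calls were 14.3% of the list, beside 28.8% of all genes. In TL4-2A cells 5 rose and 2, SAV1 and STK38L, fell, 33.3% beside 44.3% of all genes. The largest increases were those of TAOK2, whose kinase activates the MST kinases, from 105 to 137 CPM (0.38, edgeR adjusted p = 1.24e-10), and of MINK1 (0.32, adjusted p = 1.63e-07). NF2, the gene of the tumour suppressor merlin, rose by 0.19 in TL4-2A cells (adjusted p = 1.73e-05) and was at 0.08 in TC4-2A cells (adjusted p = 0.0885). The most abundant, TAOK1 and MAP4K4, were at -0.04 and 0.00 in the TC4-2A line and at 0.05 each in the TL4-2A line, none of them called. The medians of the list were 0.00 and 0.03. Between the transgenic lines 1 of the 21, SAV1, was higher in TC4-2A and 6 were lower, 33.3% beside 35.4%.

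Inhibitors of the pathway comprised Ajuba-family LIM proteins and STRIPAK, a complex of striatins and protein phosphatase 2A that dephosphorylates the MST kinases. All 17 were tested. In TC4-2A cells 4 rose, among them WTIP, STRIP2 and STRN4, and 2 fell (STRN3 and MOB4), 35.3% beside 28.8% of all genes, with a median of 0.01. In TL4-2A cells 6 rose and 3 fell, 52.9% beside 44.3%, with a median of -0.04. WTIP, of the Ajuba family, went from 12.6 CPM in T-REx to 18.6 CPM in the TC4-2A line (0.56, edgeR adjusted p = 2.95e-07) and 14.8 CPM in the TL4-2A line (0.23, adjusted p = 0.0195, lost in 3 of 15 alternatives). The STRIPAK subunit gene STRIP2 rose by 0.46 in the TC4-2A line (adjusted p = 7.1e-09) and by 0.29 in the TL4-2A line (adjusted p = 3.82e-05). The striatin gene STRN4 rose by 0.15 and 0.25. MOB4, another STRIPAK subunit, was at 20.8 CPM in T-REx, 17.8 CPM in the TC4-2A line and 27.1 CPM in the TL4-2A line. It fell by 0.22 in the former (edgeR adjusted p = 0.00581) and rose by 0.38 in the latter (adjusted p = 2.21e-06), and the direct difference was -0.60 (adjusted p = 2.42e-10). The phosphatase genes PPP2R1A and PPP2CA, the most abundant of the list, were not called in either line, with values between -0.05 and 0.02. Set against TL4-2A cells, 5 of the 17 were higher in TC4-2A cells and 4 lower, 52.9% beside 35.4%.

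Partners of angiomotins are junction scaffolds and the enzymes that control angiomotin stability. Of 21 genes 20 were tested, CRB3 being too low. In TC4-2A cells 3 rose (TJP1, MAGI1 and ARHGAP17) and 5 fell (PATJ, LIN7A, TNKS, TNKS2 and USP9X), 40% beside 28.8% of all genes, with a median of -0.01. Of these calls, those of LIN7A and MAGI1 were lost in 5 of 15 alternatives each. In TL4-2A cells 5 rose and 8 fell, 65% beside 44.3%, with a median of -0.05. PATJ, the polarity scaffold that binds angiomotin, fell by 0.29 in the TC4-2A line (edgeR adjusted p = 1.25e-07) and by 0.31 in the TL4-2A line (adjusted p = 2.11e-08). USP9X, a deubiquitinase that acts on angiomotin, fell from 586 CPM to 502 CPM (-0.22, adjusted p = 1.06e-08) and 525 CPM (-0.16, adjusted p = 5.56e-06). TNKS2, a tankyrase that marks angiomotins for degradation, fell by 0.12 and 0.18. ARHGAP17, a GTPase-activating protein bound by angiomotin at junctions, rose by 0.14 in the TC4-2A line (adjusted p = 0.00258) and by 0.27 in the TL4-2A line (adjusted p = 1.26e-07). PTPN14, a phosphatase gene that also stands among the targets, was at 0.04 in the TC4-2A line (adjusted p = 0.418) and rose by 0.11 in the TL4-2A line (adjusted p = 0.00489). Directly between the transgenic lines 4 of the 20 were called, 20% beside 35.4%, with PALS1 and RNF146 higher and ARHGAP17 and USP9X lower in TC4-2A. The USP9X call was lost in 9 of 15 alternatives.

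Of 13 nuclear partners of YAP and TAZ 12 were tested, VGLL1 being too low. In TC4-2A cells 2 rose (VGLL3 and VGLL4) and 5 fell (VGLL2, RUNX1, RUNX2, FOSL1 and JUN), 58.3% beside 28.8% of all genes, with a median of -0.01. The calls of VGLL3, VGLL4 and FOSL1 were each lost in 8 of 15 alternatives. In TL4-2A cells 3 rose and 6 fell, 75% beside 44.3%, with a median of -0.19. The RUNX transcription factor genes fell in both lines, RUNX1 from 66.9 CPM to 55.6 CPM in the TC4-2A line (-0.27, edgeR adjusted p = 4.97e-05) and 44.5 CPM in the TL4-2A line (-0.59, adjusted p = 4.36e-12). RUNX2 fell from 19.0 CPM to 11.7 CPM (-0.70, adjusted p = 7.12e-09) and 13.8 CPM (-0.46, adjusted p = 1.02e-05). JUN, of the AP-1 factor, fell by 0.22 in the TC4-2A line (adjusted p = 1.32e-07) and by 0.33 in the TL4-2A line (adjusted p = 7.18e-12). VGLL2, a TEAD cofactor gene named after its values were seen, fell from 3.56 CPM to 1.38 CPM in the TC4-2A line (-1.37, edgeR adjusted p = 5.17e-07) and 2.08 CPM in TL4-2A cells (-0.78, adjusted p = 0.000653). Of the 12, 4 were higher and 4 lower in TC4-2A than in TL4-2A, 66.7% beside 35.4%.

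Of 18 other YAP/TAZ target genes 17 were tested, IGFBP3 being too low. In TC4-2A cells none rose and 4 fell, a share of 23.5% beside 28.8% of all genes, with a median of -0.09. The 4 were TGFB2, a transforming growth factor gene (-0.49, edgeR adjusted p = 0.000296), RBMS3, an RNA-binding protein gene (-0.36, adjusted p = 5.1e-05), GADD45A, a stress-induced growth-arrest gene (-0.32, adjusted p = 5.5e-06), and CCDC80, a matrix protein gene (-0.23, adjusted p = 0.0495, lost in 9 of 15 alternatives). In TL4-2A cells 3 rose and 5 fell, 47.1% beside 44.3% of all genes, with a median of -0.14. TGFB2, RBMS3 and GADD45A were also lower there, at -0.42, -0.28 and -0.34, and in TC4-2A against TL4-2A cells none of the 3 was called. DOCK5, a guanine nucleotide exchange factor gene, rose by 0.20 in TL4-2A cells (adjusted p = 6.58e-05) and was at 0.04 in TC4-2A cells. CRIM1, an abundant transmembrane protein gene, was at -0.06 and 0.04, neither called. AXL, a receptor tyrosine kinase gene named after its values were seen, was at 0.886 CPM in T-REx and fell to 0.393 CPM in TL4-2A cells (-1.20, adjusted p = 0.0198, lost in 4 of 14 alternatives). In TC4-2A against TL4-2A cells AXL was higher and ARHGEF17, CRIM1 and DOCK5 were lower, 23.5% beside 35.4% of all genes. In this comparison the CRIM1 call was lost in 7 of 15 alternatives and the AXL call in 4 of 14.

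**Figure D5:**
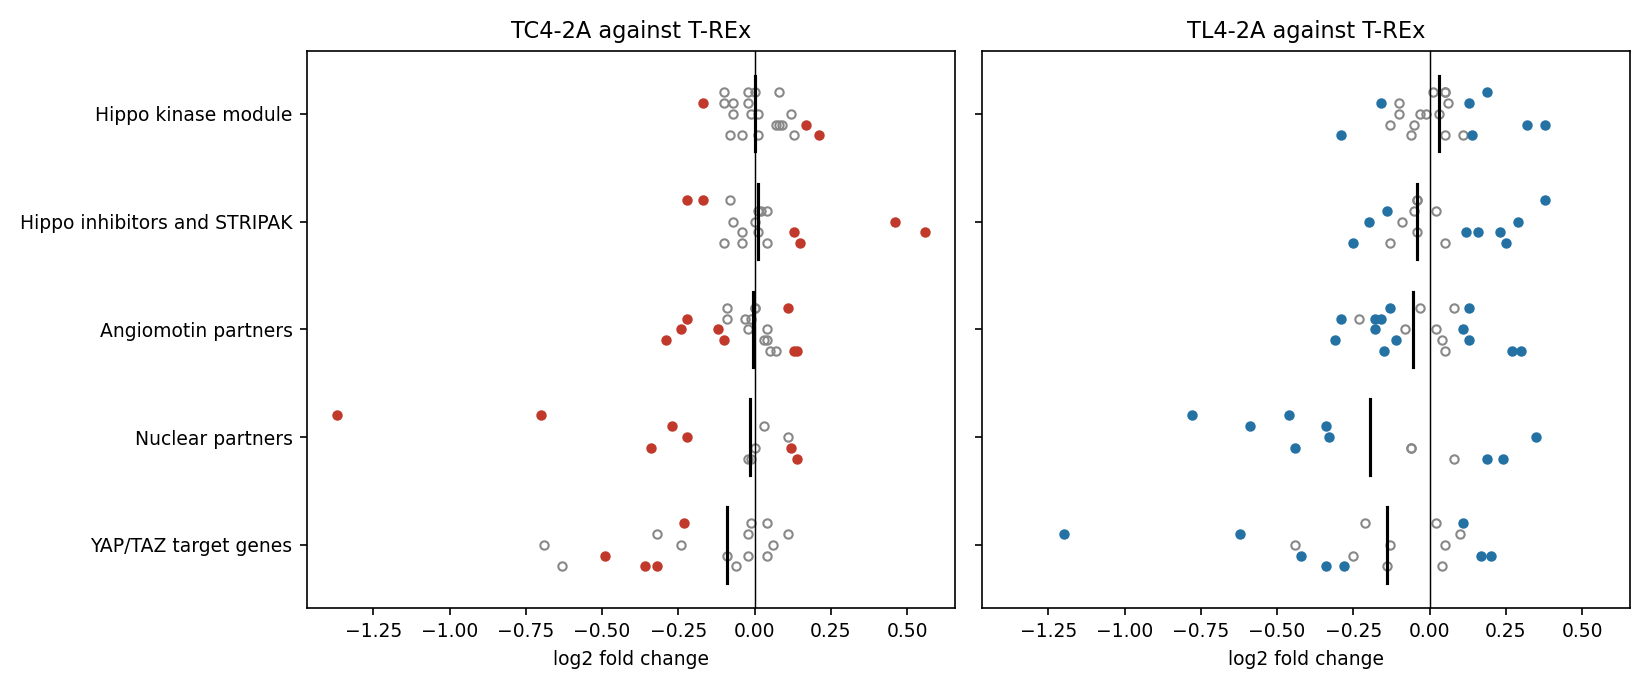
Log2 fold change of every tested gene in the 5 lists (dots) and the list median (black lines) for each transgenic line against T-REx, where filled dots passed the test. The medians lie between -0.19 and 0.03, and 2 values lie beyond 1 on the log2 scale, VGLL2 in the TC4-2A line (-1.37) and AXL in the TL4-2A line (-1.20).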

How the data were processed

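RNA was measured in 9 libraries of 3 HEK293-derived lines. The authors deposited raw counts per gene, from featureCounts on HISAT2 alignments to GRCh38 (genes of Gencode v33). Tool versions and the strand and multiple-match options are not stated in the sources used. Deposited tables of the authors' DESeq2 comparisons (fold changes and p-values) were not used. The counts of 60648 genes were used and 3 damaged lines left out. Gencode v44 gave names, positions and lengths for 60462 IDs.

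Counts were filtered with filterByExpr over the 3 lines, scaled by TMM (factors 0.9906 to 1.014) and fitted with 1 term per line in edgeR 4.0.16 (R 4.3.3). The test was checked on simulated data, where smaller changes were recovered less often and the share of false calls lay above the threshold. Alternatives were DESeq2 1.42.0, RLE scaling, no filter, at least 10 counts in every library, only the 2 lines compared, a replicate block, each library left out, other numbers of neighbours and the longest transcript as length. Plots used Python 3.11.15 and matplotlib 3.10.9.

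All 10 members were named. In each list the 4 genes with the smallest p and the 2 with the highest CPM were named, with the 5 genes nearest to AMOT in pattern and its 2 nearest neighbours on either side and any changed over 2-fold. A gene that the rule takes is not reported here. Members and lists were chosen with earlier results of these data known.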

Additional observations from a re-analysis of the deposited data

Results flagged for a closer look

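WWTR1 and CCN1 differed between the transgenic lines by a direct test. WWTR1 was at 48.8 ± 1.64 CPM in TC4-2A and 60.5 ± 1.76 CPM in TL4-2A cells (SD, n = 3 libraries), a log2 difference of -0.31 (adjusted p = 1.34e-06 from edgeR), and the lines lay on opposite sides of T-REx cells (55.3 ± 0.814 CPM). CCN1 was at 15.1 ± 0.634 CPM in TC4-2A and 19.7 ± 0.534 CPM in TL4-2A cells, a log2 difference of -0.38 (adjusted p = 2.8e-05 from edgeR). All 3 TC4-2A libraries were below all 3 TL4-2A libraries for both genes, while 35.4% of all genes tested were called in this comparison.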

How the results depend on the processing

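No called value of the members, of the 86 list genes tested or of 6 named genes near AMOT changed direction in any alternative. Of the list genes' calls, 18 of 28 in TC4-2A cells, 35 of 45 in TL4-2A cells and 20 of 32 between these lines were kept in every alternative. Of the 9 members other than AMOT, the number called ranged from 2 to 4 in TC4-2A cells and from 1 to 3 in TL4-2A cells when each library was left out in turn, the calls lost being those of YAP1, TEAD1 and WWTR1. With 5 neighbours on either side in place of 10, the median around AMOT was -0.34 for TC4-2A and -0.26 for TL4-2A. With the longest transcript as length, the AMOT share of the angiomotin mRNAs was 47.7% for T-REx, 8.80% for TC4-2A and 53.6% for TL4-2A. AMOT stayed between -3.26 and -3.22 for TC4-2A and between 0.32 and 0.35 for TL4-2A over 15 alternatives. Replicates with the same number did not deviate together (correlations of -0.0389 to 0.0813 over 9 pairs), so the numbers were not read as a pairing. With the replicate block, 5703, 8656 and 6894 genes were called in place of 5607, 8633 and 6884. DESeq2 called 4274, 7044 and 5488. Depth limits CCN2, with at most 43 counts per library.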
